A study of Rattus norvegicus with 8 samples.

Results

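The genes of vitamin D metabolism and of transcellular calcium transport were followed through the outer medulla and the cortex of rat kidneys. They were chosen by name as 10 genes, Cyp24a1, Cyp27b1, Vdr, Trpv5, Trpv6, Calb1, S100g, Slc8a1, Atp2b1 and Atp2b4, of 15037 genes named on the array. Each had 1 probe set. Of the 10, 9 passed the filter on dim values, and Cyp27b1 did not. The study concerns kidney stones and phlorizin, which inhibits sodium-glucose cotransporters. The animals were male rats of the Sprague-Dawley strain, aged 10 weeks, whose kidneys were split into outer medulla and cortex, and total RNA was read on Clariom S arrays. The 4 treatments were ethylene glycol and alfacalcidol with phlorizin (EG with phlorizin), ethylene glycol and alfacalcidol alone (EG), phlorizin alone, and control. EG was given for 2 weeks, while the dose and duration of phlorizin and the vehicle of the controls are not given in the sources used here.

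With 1 array for each zone and treatment there was no replicate, so differences between single arrays have no p-value. It is unknown from the labels if RNA from several animals was pooled, and the zones of a treatment can share animals. Ethylene glycol and alfacalcidol were always given together, so their effects cannot be told apart. Values are log2 expression values, in which a difference of 1 is a doubling. Levels of different genes cannot be compared with each other, because each probe set has its own brightness.

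Vitamin D is hydroxylated in the liver and again, by Cyp27b1 of the proximal tubule, to the active hormone calcitriol. Calcitriol binds the receptor Vdr, and Cyp24a1, an enzyme that calcitriol induces, breaks it down. Alfacalcidol already carries the hydroxyl group that Cyp27b1 adds, so the liver alone can activate it. In the distal convoluted and connecting tubule, calcium enters the cell through the channel Trpv5, is carried by the calbindins Calb1 and S100g, and leaves through the exchanger Slc8a1 and the pumps Atp2b1 and Atp2b4. Trpv6 is the related channel best known from the intestine.

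The arrays had medians of 7.39 to 7.58 over all transcripts. On each array 23 background probes averaged 5.53 to 5.68, with single probes between 2.72 and 7.98. A value at or below the mean of these probes is called background here, and a difference from it is a lower bound computed against that mean. Added bacterial RNA, which tracks labelling, was dimmer on the EG array of the cortex (6.42) than elsewhere (7.46 to 8.23). Hybridisation control oligonucleotides averaged 10.39 on that array and 10.65 to 11.33 on the others. The zone labels were checked on Slc12a3, the sodium chloride cotransporter of the distal convoluted tubule, which had 4.12 to 4.93 on the outer medulla arrays and 15.45 to 16.29 on the cortex arrays.

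**Figure D1:**
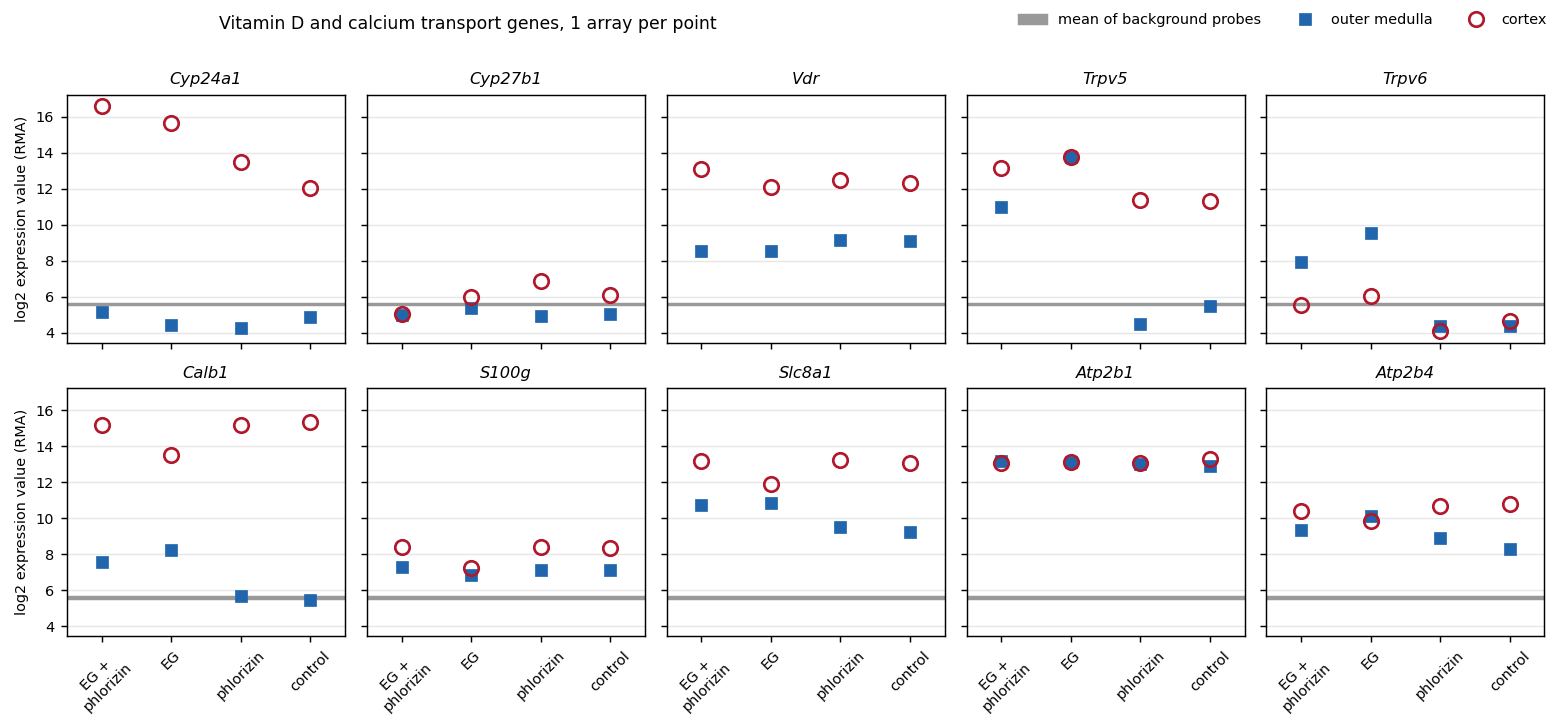
Log2 expression value (vertical axis) of each of the 10 genes on the 8 arrays, by treatment, with blue squares for the outer medulla, open red circles for the cortex and a grey band for the mean of the background probes. Trpv5, Trpv6 and Calb1 leave background in the outer medulla on both arrays with EG, and cortical Cyp24a1 is higher on both arrays with EG than on both without.

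Cyp24a1 was measurable in the cortex, where it was higher with EG. Its outer medulla values were 5.17 with EG and phlorizin, 4.44 with EG, 4.25 with phlorizin and 4.91 in the control, all at background. Its cortical values were 16.59 with EG and phlorizin, 15.64 with EG, 13.52 with phlorizin and 12.05 in the control. Both cortical arrays with EG thus lay above both without, and within each pair the array with phlorizin was the higher. EG minus control was 3.59 in the cortex, a 12.1-fold difference, and EG with phlorizin minus phlorizin was 3.07, or 8.41-fold. Among the 13163 tested probe sets these differences ranked 62 and 9 by size. Phlorizin minus control was 1.47 in the cortex, or 2.77-fold, which ranked 13 by size in that comparison.

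Cyp27b1, the activating enzyme, was close to background everywhere. Its outer medulla values were 4.98 with EG and phlorizin, 5.41 with EG, 4.95 with phlorizin and 5.03 in the control. In cortex RNA it had 5.05 with EG and phlorizin, 5.99 with EG, 6.88 with phlorizin and 6.08 in the control. On 5 of the 8 arrays it was at background, and no test was made of it. Vdr, the receptor, lay within 1 of its control under every treatment. It had 8.57 with EG and phlorizin, 8.54 with EG, 9.15 with phlorizin and 9.08 in the control in the outer medulla. Its cortical values were 13.08 with EG and phlorizin, 12.13 with EG, 12.48 with phlorizin and 12.32 in the control. EG minus control was -0.55 for the outer medulla and -0.19 for the cortex.

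Trpv5 and Trpv6, the entry channels, were the members with the largest EG differences in the outer medulla. Trpv5 had 10.99 with EG and phlorizin and 13.76 with EG in the outer medulla, against 4.49 with phlorizin and 5.48 in the control. In cortex RNA it had 13.17 with EG and phlorizin, 13.76 with EG, 11.40 with phlorizin and 11.35 in the control. In the outer medulla the gene was therefore at background on both arrays without EG, and with EG alone it had the value it had in the cortex. EG minus control in the outer medulla was at least 8.16, or at least 287-fold. EG with phlorizin minus phlorizin was at least 5.36 there, or at least 41.0-fold. Ranks among all tested probe sets were taken from the differences of the deposited values, not from the bounds. These differences were 8.28, with rank 5, and 6.51, with rank 4. In the cortex, EG minus control was 2.41, or 5.3-fold, and EG with phlorizin minus phlorizin was 1.78, or 3.42-fold.

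Trpv6 had 7.92 with EG and phlorizin and 9.53 with EG in the outer medulla, against 4.37 with phlorizin and 4.38 in the control. Its cortical values were 5.54 with EG and phlorizin, 6.08 with EG, 4.09 with phlorizin and 4.65 in the control. It stood above single background probes only on the outer medulla EG array, reached their upper range with EG and phlorizin, and was at or near background elsewhere. EG minus control in the outer medulla was at least 3.94, or at least 15.3-fold. EG with phlorizin minus phlorizin was at least 2.29 there, or at least 4.88-fold. The differences of the deposited values were 5.15, with rank 15 by size, and 3.55, with rank 13, and these ranks do not hold for the bounds. Trpv6 passed the filter on dim values only through these outer medulla arrays with EG. The channels are close relatives, and whether the Trpv6 probes bind Trpv5 RNA was not tested. In the cortex, where Trpv5 reached 13.76, Trpv6 did not exceed 6.08.

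In the RefSeq annotation of the rat genome (GRCr8) the channels are neighbours on chromosome 4, with 0 annotated genes between them. Since both were high with EG in the same zone, the 250 bases before each start are printed, read 5′ to 3′ on the strand of the gene, which is the minus strand for both. Trpv5 has the window chr4:71529383-71529632 and Trpv6 the window chr4:71489668-71489917. Capitals mark a match to one of 4 hexamers, searched on both strands and spelled out with their shares after the sequences. Such hexamers are half-sites that the vitamin D receptor shares with other nuclear receptors.
Trpv5: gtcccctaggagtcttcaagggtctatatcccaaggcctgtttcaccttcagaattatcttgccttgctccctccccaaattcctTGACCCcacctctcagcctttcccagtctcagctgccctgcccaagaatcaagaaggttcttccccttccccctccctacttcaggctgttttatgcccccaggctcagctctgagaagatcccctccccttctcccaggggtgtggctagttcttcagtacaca
Trpv6: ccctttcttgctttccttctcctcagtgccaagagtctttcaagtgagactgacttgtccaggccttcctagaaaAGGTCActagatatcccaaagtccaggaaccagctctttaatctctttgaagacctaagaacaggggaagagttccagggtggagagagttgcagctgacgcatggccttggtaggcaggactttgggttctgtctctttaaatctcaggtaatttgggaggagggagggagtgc
In Trpv5 the match is GGGTCA read on the opposite strand, 165 bases before the start, and in Trpv6 it is AGGTCA, 175 bases before the start. A window was available for 7 of the 10 genes, and not for Cyp24a1, Calb1 and S100g. Of the 7, 4 held a half-site, the others being Cyp27b1 and Vdr with GGTTCA, and 39.1% of 33469 rat promoter windows of the same length held one. AGGTCA occurred in 14.1% of these windows and GGGTCA in 11.9%. The hexamer AGTTCA occurred in 12.2%, and the hexamer GGTTCA in 9.77%. The full DR3 vitamin D response element was in none of the 7 and in 0.093% of all windows. These matches are descriptions of letters and not binding sites.

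Of the calbindins, Calb1 had EG minus control differences of opposite direction in the zones. Calb1, the large calbindin of the distal tubule, had 7.56 with EG and phlorizin and 8.21 with EG in the outer medulla, against 5.69 with phlorizin and 5.45 in the control. In cortex RNA it had 15.15 with EG and phlorizin, 13.51 with EG, 15.15 with phlorizin and 15.36 in the control. The outer medulla arrays with EG lay above those without, while in the cortex the EG array alone was low and the other treatments lay between 15.15 and 15.36. EG minus control was at least 2.62 in the outer medulla, or at least 6.13-fold, and -1.85 in the cortex, where the EG array was 3.6-fold lower. EG with phlorizin minus phlorizin was 1.87 in the outer medulla, or 3.64-fold, and 0.002 in the cortex. In the outer medulla the Calb1 value with phlorizin was 0.06 above the background mean, and that with EG and phlorizin lay within the range of single background probes.

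S100g, the small calbindin, had 7.27 with EG and phlorizin, 6.84 with EG, 7.11 with phlorizin and 7.13 in the control in the outer medulla. Its cortical values were 8.39 with EG and phlorizin, 7.22 with EG, 8.39 with phlorizin and 8.33 in the control. The outer medulla values and the cortical EG value lie within the range of single background probes. EG minus control in the cortex was -1.11, and EG with phlorizin minus phlorizin was 0.007.

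Among the proteins that move calcium out of the cell, Slc8a1, the sodium-calcium exchanger, had the Calb1 pattern. It had 10.72 with EG and phlorizin and 10.87 with EG in the outer medulla, against 9.52 with phlorizin and 9.23 in the control. In the cortex it had 13.19 with EG and phlorizin, 11.90 with EG, 13.25 with phlorizin and 13.05 in the control. EG minus control was 1.63 in the outer medulla, or 3.1-fold, and -1.15 in the cortex, where the EG array was again the one low array. EG with phlorizin minus phlorizin was 1.20 in the outer medulla, or 2.3-fold, and -0.06 in the cortex.

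The plasma membrane pump Atp2b4 had 9.33 with EG and phlorizin and 10.15 with EG in the outer medulla, against 8.88 with phlorizin and 8.29 in the control. In cortex RNA it had 10.37 with EG and phlorizin, 9.87 with EG, 10.69 with phlorizin and 10.77 in the control. EG minus control was 1.86 in the outer medulla, or 3.62-fold, and -0.90 in the cortex. With phlorizin in both arms the EG difference was 0.45 in the outer medulla, or 1.36-fold, and -0.32 in the cortex. Atp2b1, the pump found in most cell types, was the steadiest member. It had outer medulla values of 13.20 with EG and phlorizin, 13.13 with EG, 13.02 with phlorizin and 12.89 in the control. In the cortex it had 13.06 with EG and phlorizin, 13.15 with EG, 13.07 with phlorizin and 13.29 in the control, so all 8 values lay within 0.40.

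**Figure D2:**
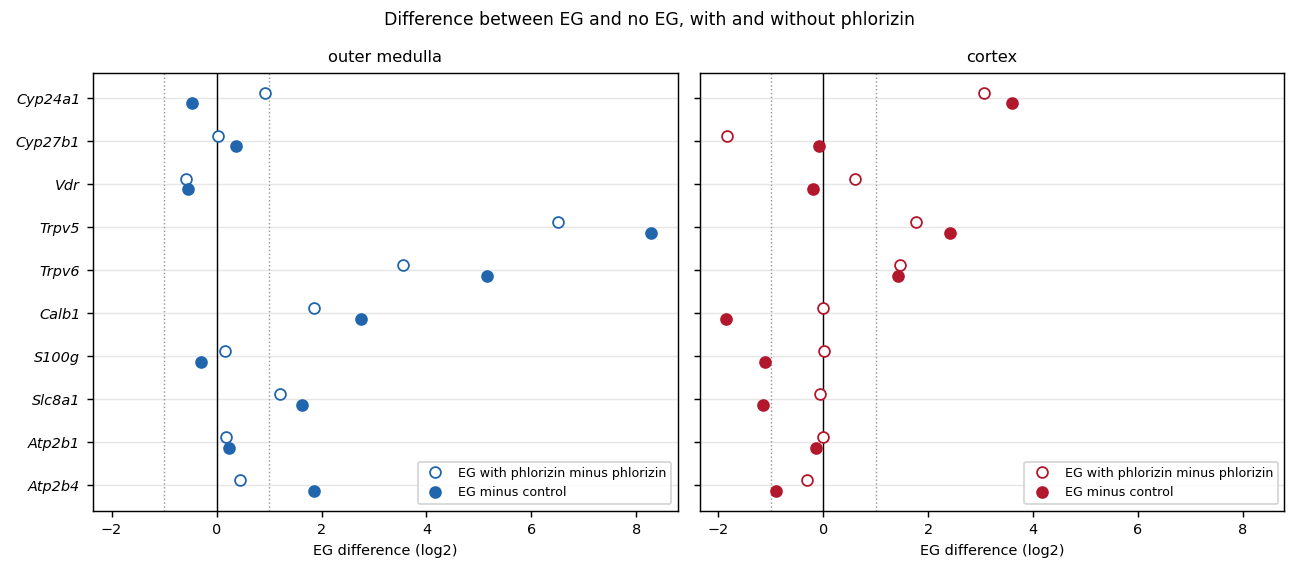
EG difference on the log2 scale (horizontal axis) of each gene in the outer medulla (left) and the cortex (right), with open circles for EG with phlorizin minus phlorizin and filled circles for EG minus control, and dotted lines at 1 and -1. Calb1, Slc8a1 and Atp2b4 lie above 0 in the outer medulla and, for EG minus control, below 0 in the cortex.

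A gene was counted as higher or lower where 2 arrays were at least 1 apart. In the outer medulla, EG against control, 5 of 9 tested members were higher (Trpv5, Trpv6, Calb1, Slc8a1 and Atp2b4) and 0 were lower, beside 8.58% of all tested probe sets that were higher and 9.69% that were lower. In the cortex 3 were higher (Cyp24a1, Trpv5 and Trpv6) and 3 lower (Calb1, S100g and Slc8a1), beside 9.66% higher and 12.7% lower of all. For Trpv6, at background in the cortical control, the bound is only 0.39, so with values raised to the background mean 2 members were higher in the cortex, beside 9.49% of all. The median EG difference of the members was 1.63 in the outer medulla, against -0.05 over all tested probe sets, and -0.19 in the cortex, against -0.07. With phlorizin in both arms, 4 members were higher and 0 lower in the outer medulla, beside 3.65% and 3.01% of all. In the cortex 3 were higher and 0 lower under phlorizin, beside 2.43% and 1.55% of all, with Trpv6 at background on both arrays. At least 1 higher in both phlorizin arms were 4 members in the outer medulla, beside 3.14% of all probe sets, and 3 in the cortex, beside 2.02%. With values raised to the background mean, a bound computed after the values were seen, the cortical count was 2, Cyp24a1 and Trpv5, beside 1.89% of all. None was at least 1 lower in both arms in either zone, beside 1.97% of all for the outer medulla and 1.03% for the cortex. At least 1 higher in the outer medulla but below 0 in the cortex, EG against control, were 3 members (Calb1, Slc8a1 and Atp2b4), beside 1.09% of all. Above 0 in the outer medulla and below 0 in the cortex in both phlorizin arms were 3 members (Slc8a1, Atp2b1 and Atp2b4), beside 5.44% of all. These counts describe members of which Trpv6 passed the filter through EG arrays only.

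The EG effect was tested with limma on 4 treatment profiles, each the mean of the outer medulla and the cortex array, with EG and phlorizin as additive terms. With no replicate profiles, the 1 residual degree of freedom is the change of the EG difference with phlorizin. SE and p-values of this fit rest on that change and on variances moderated over all tested probe sets, not on spread between animals. Trpv5 rose, by 4.74 (SE 0.32, limma adjusted p = 0.0295), with profile means of 12.92 with EG and 8.18 without, and it was higher in 2 of 2 pairs. It was the 1 member called, beside 0.038% of all tested probe sets called higher, which is 5, and 0.0% called lower. The call was made under 6 of 9 alternative settings, with limma adjusted p between 0.000801 and 0.188. Trpv6 was higher by 2.90 (SE 0.26, limma adjusted p = 0.0587) and Cyp24a1 by 1.78 (SE 0.23, limma adjusted p = 0.0696), and neither passed. Trpv6 entered the test only through outer medulla arrays with EG and was at background on 5 of 8 arrays, so its estimate is not exact. Cyp24a1 was at background on all 4 outer medulla arrays. Its estimate thus averages differences between background values with the cortical EG differences of 3.59 without and 3.07 with phlorizin. With values raised to the background mean, EG minus no EG was 1.65 for Trpv6, 1.67 for Cyp24a1 and 4.43 for Trpv5. Over the alternatives the limma adjusted p ran between 0.0057 and 0.188 for Trpv6 and between 0.0166 and 0.759 for Cyp24a1. For the other 6 tested members the limma adjusted p ran between 0.155 for Calb1, whose estimate was 0.69, and 0.879 for Atp2b1, whose estimate was 0.07.

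Whether EG differed between the zones was tested with limma on the 4 outer medulla minus cortex differences. This fit too has 1 residual degree of freedom, so its SE and p-values do not measure spread between animals. The largest member estimate was that of Trpv5, for which the EG difference was 5.30 larger in the outer medulla than in the cortex (SE 0.37, limma adjusted p = 0.0996). That of Calb1 was 3.24 larger (SE 0.67, limma adjusted p = 0.253), that of Trpv6 2.91 larger (SE 0.45, limma adjusted p = 0.199) and that of Slc8a1 2.02 larger (SE 0.43, limma adjusted p = 0.261). For Cyp24a1 the estimate was -3.11 (SE 0.50, limma adjusted p = 0.202), with the outer medulla at background. Trpv5 was at background on both outer medulla arrays without EG and Calb1 on the outer medulla control, so their estimates are not exact. Trpv6, at background on 5 of 8 arrays, passed the filter only through outer medulla arrays with EG. A larger EG difference there was thus built in for Trpv6, and its p-values support nothing. At an adjusted p under 0.05 limma called 0 of 13163 probe sets (0.0%). Of all tested probe sets, 1627 had an unadjusted p under 0.05, among them 6 of the 9 members, Trpv6 included. Trpv5 was called under 3 of 5 alternatives, where the limma adjusted p was 0.013 with quantile normalization, 0.0223 without a filter and 0.0349 with an intensity trend in the variance prior. Trpv6 was called under 1 of 5, the intensity trend, with a limma adjusted p of 0.0378, and the other members under 0 of 5.

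**Figure D3:**
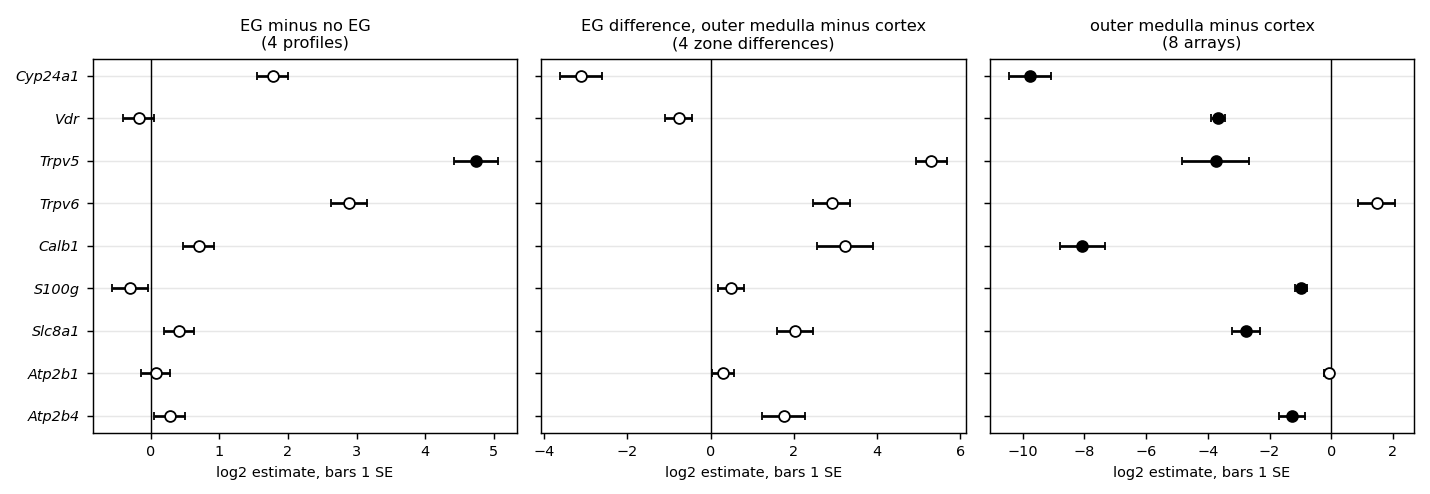
limma estimates on the log2 scale with bars of 1 SE for the 9 tested genes, as EG minus no EG over 4 profiles, as the EG difference in the outer medulla minus that in the cortex, and as outer medulla minus cortex over 8 arrays, with filled points at an adjusted p under 0.05. Trpv5 is the one filled point for EG, no point is filled for the zone difference of EG, and 7 points are filled, all below 0, for the zones.

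Phlorizin in animals with EG went with different members in each zone. In the outer medulla, EG with phlorizin against EG, 0 of 9 members were higher and 2 lower, beside 3.35% and 4.34% of all probe sets. These were Trpv5, at -2.77 or 6.81-fold lower, and Trpv6, at -1.61 or 3.06-fold lower. In the cortex 3 were higher and 0 lower, beside 7.35% and 6.18% of all. Calb1 was higher by 1.65, or 3.13-fold, Slc8a1 by 1.29 and S100g by 1.18. For these genes EG with phlorizin minus control was -0.20 for Calb1, 0.14 for Slc8a1 and 0.07 for S100g in the cortex, so each lay near its control value. Cyp24a1 was 0.95 higher, or 1.93-fold, at EG with phlorizin and so lay farther from its control. All 5 members at least 1 apart in the outer medulla, EG against control, had a smaller EG difference in the same direction with phlorizin in both arms, as did 89.7% of all probe sets at least 1 apart there. In the cortex this held for 3 of 6 members, Cyp24a1, Trpv5 and Slc8a1, beside 85.4% of all. Whatever the direction, the difference was smaller in size with phlorizin for 5 of 6 members in the cortex, beside 98.9% of all, and for 5 of 5 in the outer medulla, beside 96.6%. Calb1 and S100g, at 0.002 and 0.007 with phlorizin, were among the 5 in the cortex, and Trpv6 was the exception. Cortical Trpv6 was at background in the control and on both arrays with phlorizin, and its EG minus control bound was 0.39. It is among the 6 only by its deposited values, so whether its difference was smaller with phlorizin cannot be read. These probe sets were chosen by the EG minus control difference, which favours a smaller second difference.

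With phlorizin alone the tested members lay within 1 of their control values, apart from Cyp24a1 in the cortex. Cyp27b1, close to background and not tested, was 0.80 higher in the cortex with phlorizin than in the control, or 1.74-fold. Against the control, 1 of 9 members was higher and 0 lower in the cortex, beside 0.653% and 0.501% of all probe sets, and the member was Cyp24a1. In the outer medulla 0 were higher and 0 lower, beside 0.577% and 0.205% of all, and Atp2b4 had the largest difference among members above background, at 0.59. Over the 4 profiles limma called 0 of 13163 probe sets for phlorizin (0.0%), of which 468 had an unadjusted p under 0.05, among them 3 members. These were Trpv5 with an estimate of -1.08 (SE 0.32), Trpv6 with -0.68 (SE 0.26) and Cyp24a1 with 0.62 (SE 0.23), each at a limma adjusted p of 0.995. The limma test of phlorizin by zone also called 0 (0.0%), with 900 at an unadjusted p under 0.05, among them 1 member.

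Between the zones, most members were lower in the outer medulla. With the treatment as a block over 8 arrays, limma called 7 of 9 members lower and 0 higher, beside 18.8% of all probe sets lower and 32.7% higher. Outer medulla minus cortex was -9.76 for Cyp24a1 (SE 0.68, limma adjusted p = 0.000111), -8.06 for Calb1 (SE 0.72, limma adjusted p = 0.000252) and -3.67 for Vdr (SE 0.23, limma adjusted p = 8.34e-05). It was -2.76 for Slc8a1 (SE 0.46, limma adjusted p = 0.00304) and -3.74 for Trpv5 (SE 1.09, limma adjusted p = 0.0272), and without the block the limma adjusted p of Trpv5 was 0.147. The zone difference of Trpv5 was 0.001 with EG and -2.18 with EG and phlorizin. Without EG, Trpv5 was at background in the outer medulla, with bounds of -5.76 both in the control and with phlorizin. Atp2b4, at -1.26, and S100g, at -0.99, were also called, with limma adjusted p of 0.0418 and 0.00548. With EG alone Atp2b4 was 0.28 higher in the outer medulla, and it was lower there under the other treatments. Atp2b1, at -0.08 (limma adjusted p = 0.666), and Trpv6, at 1.46 (limma adjusted p = 0.0818), were not called. Cyp24a1 and S100g passed the filter through cortex arrays alone, so that a zone difference was built in for them and their p-values support nothing. Cyp24a1 was at background on all 4 outer medulla arrays, and with values raised to the background mean its outer medulla minus cortex difference was -8.83, with bounds between -6.45 in the control and -10.93 with EG and phlorizin. Arrays of a treatment can share animals. With 1 array per zone and treatment, the 3 residual degrees of freedom are the change of the zone difference over the 4 treatments. SE and p-values of this fit rest on that change and on moderated variances, not on spread between animals.

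In whole tissue, fewer cells of a type and less RNA per cell cannot be told apart, so markers of the cells that could carry these genes were read beside them. Slc12a3 was at background on all 4 outer medulla arrays, at 4.93 with EG and phlorizin, 4.53 with EG, 4.12 with phlorizin and 4.65 in the control, and Sall3, another marker of the distal convoluted and connecting tubule, was at background there too. The 8 measured markers of these segments, of 11 listed, averaged 7.63 with EG and phlorizin, 7.67 with EG, 7.46 with phlorizin and 7.40 in the control of the outer medulla. Scnn1b and Scnn1g, at 11.79 and 10.55 with EG there, are also on the list of principal cell markers. With these genes and genes at background in it, the mean cannot show whether RNA of these segments changed. Tmem52b was the one marker of the 8 at least 1 higher with EG in the outer medulla, at 8.95 against 6.05 in the control. In the cortex the same 8 markers averaged 11.44 with EG and phlorizin, 10.45 with EG, 11.48 with phlorizin and 11.60 in the control. The EG array thus had the lowest mean, but Klk1, at -4.53 for EG minus control, weighed most in it. The median of the 6 tested markers was -0.72 for EG minus control in the cortex, and Slc12a3 was at -0.62. The EG array of the cortex was also the one with the dimmest added RNA. The part of such cells or of this dimness in the cortical differences was not tested.

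The 11 markers of smooth muscle, pericytes and fibroblasts, cells also known to express Slc8a1 and Atp2b4, averaged 12.57 with EG and phlorizin and 13.74 with EG in the outer medulla, against 11.17 with phlorizin and 11.11 in the control. The 10 macrophage markers averaged 10.59 with EG and phlorizin and 11.44 with EG there, against 9.26 with phlorizin and 9.33 in the control. In the cortex the smooth muscle, pericyte and fibroblast markers averaged 11.05 with EG and phlorizin and 12.33 with EG, against 10.47 with phlorizin and 10.39 in the control. The macrophage markers averaged 9.17 with EG and phlorizin and 10.88 with EG in the cortex, against 8.29 with phlorizin and 8.28 in the control. The means of both lists were thus higher on the EG arrays of both zones. Calb1, Slc8a1 and Atp2b4 were instead higher with EG in the outer medulla and lower on the EG array of the cortex. Of the 11 markers of smooth muscle, pericytes and fibroblasts, 10 were at least 1 higher in the cortex for EG minus control. The exception, Myh11, had the directions of Calb1, Slc8a1 and Atp2b4. Its EG minus control was 2.29 for the outer medulla but -1.65 for the cortex. With phlorizin in both arms the Myh11 differences were 1.16 for the outer medulla and -0.76 for the cortex. The part of smooth muscle cells, pericytes, fibroblasts and macrophages in the differences was not tested.

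**Figure D4:**
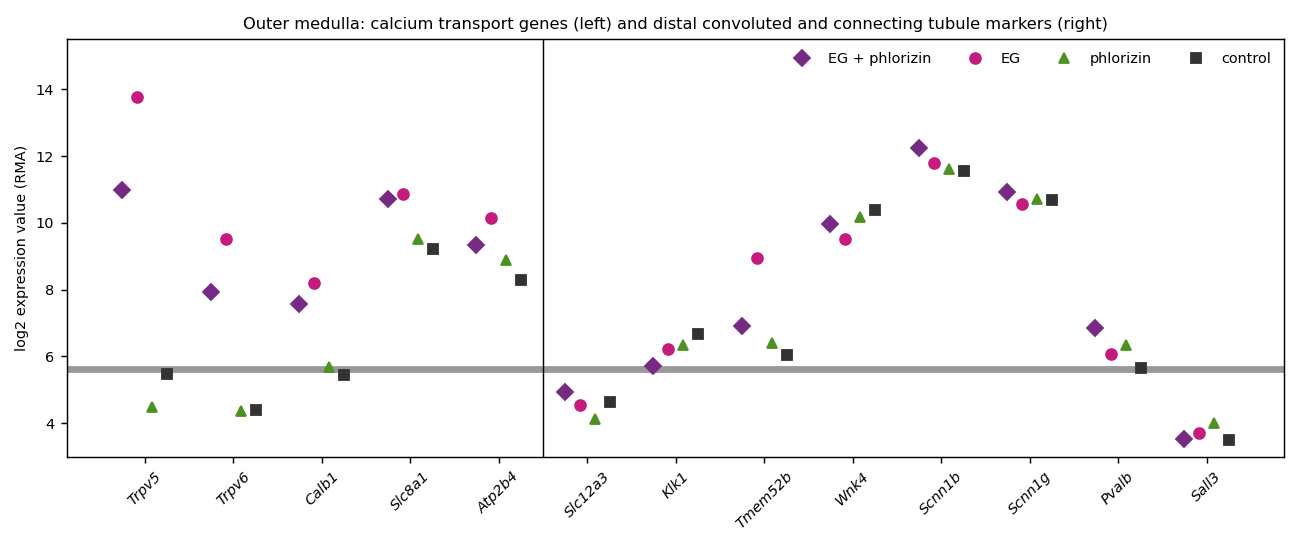
Log2 expression values (vertical axis) in the outer medulla of 5 calcium transport genes (left) and of the 8 measured distal convoluted and connecting tubule markers (right), with 1 point per treatment and a grey band for the mean of the background probes. Slc12a3 and Sall3 lie below the band under every treatment, while Trpv5, Trpv6 and Calb1 lie above it on the arrays with EG.

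The other genes of the pathway were read from 5 lists, of which limma called 0 members for EG. At an unadjusted p under 0.05 were 3 of 15 genes of vitamin D activation and its partners, 7 of 16 hormone receptors and regulators, 3 of 12 genes of the paracellular route, 4 of 12 pumps and binding proteins and 4 of 14 channels, beside 22.7% of all tested probe sets. The counts of genes at least 1 apart that follow stand, for EG against control, beside outer medulla shares of 8.58% higher and 9.69% lower over all probe sets, and cortex shares of 9.66% higher and 12.7% lower. Of 15 tested genes of vitamin D activation, uptake and receptor partnership, in the outer medulla 2 were higher and 2 lower, EG against control, and in the cortex 0 were higher and 3 lower. Gc, the vitamin D binding protein of plasma, had 5.97 with EG and phlorizin and 5.99 with EG in the outer medulla, against 7.13 with phlorizin and 7.62 in the control. In the cortex Gc had 8.85 with EG and phlorizin and 5.37 with EG, against 10.69 with phlorizin and 10.36 in the control. Its EG effect had a limma adjusted p of 0.0809. Amn, which anchors the endocytic receptor cubilin, was at -3.11 in the cortex without phlorizin and at -0.03 with it. Rxrg, a partner of Vdr, was at -2.52 in the cortex for EG minus control, and Cyp2r1, a hydroxylase that acts before Cyp27b1, was at -1.44 in the outer medulla.

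Among 16 hormone receptors and regulators of calcium handling, in the outer medulla 2 were higher and 4 were lower, and in the cortex 1 was higher and 5 were lower. Casr, the calcium-sensing receptor, had 9.29 with EG and phlorizin and 7.71 with EG in the outer medulla, against 11.30 with phlorizin and 11.60 in the control. In the cortex Casr had 10.56 with EG and phlorizin and 8.63 with EG, against 11.37 with phlorizin and 11.67 in the control, and its EG effect had a limma adjusted p of 0.0838. Kl, which makes the co-receptor klotho, had EG minus control differences of -3.60 for the outer medulla and -1.63 for the cortex. With phlorizin in both arms the Kl differences were -1.05 for the outer medulla and -0.44 for the cortex. Fgfr3, a fibroblast growth factor receptor, was 3.13 higher in the outer medulla and 1.79 higher in the cortex for EG minus control. Klk1, tissue kallikrein of the connecting tubule, was at -4.53 in the cortex for EG minus control and at -1.16 with phlorizin.

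For the paracellular route 12 genes were tested, and EG against control had 1 higher and 3 lower for the outer medulla and 3 higher and 3 lower for the cortex. Cldn10, a claudin of the thick ascending limb, was at -1.40 for the outer medulla and -2.46 for the cortex, while Cldn19, which acts together with Cldn16, was 0.87 higher in the outer medulla and 1.30 higher in the cortex. Fxyd2, a subunit of the sodium pump, was at -1.67 for the outer medulla and -0.99 for the cortex, and Cnnm2, a magnesium transport protein, at -1.13 for the outer medulla and -1.58 for the cortex.

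Of 12 further pumps, exchangers and binding proteins, the outer medulla had 3 higher and 3 lower and the cortex 3 higher and 0 lower. S100a10 and Anxa2, which form a complex that helps to place Trpv5 and Trpv6 at the membrane, were higher with EG. Anxa2 had 13.77 with EG and phlorizin and 14.77 with EG in the outer medulla, against 13.52 with phlorizin and 13.69 in the control. In the cortex Anxa2 had 11.78 with EG and phlorizin and 13.66 with EG, against 10.40 with phlorizin and 10.34 in the control, and its EG effect had a limma adjusted p of 0.0977. EG minus control was 3.18 in the cortex for S100a10, and 2.00 for the outer medulla and 2.08 for the cortex for S100a6, another calcium-binding S100 protein. The pump Atp2b3 was at -2.31 in the outer medulla. Of 14 other calcium channels, the outer medulla had 2 higher and 2 lower and the cortex 1 higher and 2 lower. The voltage-gated channel Cacna1c was 1.62 higher in the outer medulla. For the store-release receptors, the outer medulla difference was -1.02 for Itpr2 and 1.35 for Itpr3, and the store-operated channel Orai2 was 1.09 higher in the cortex. With phlorizin against control, 0 of the tested genes of these 5 lists were at least 1 apart in either zone.

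**Figure D5:**
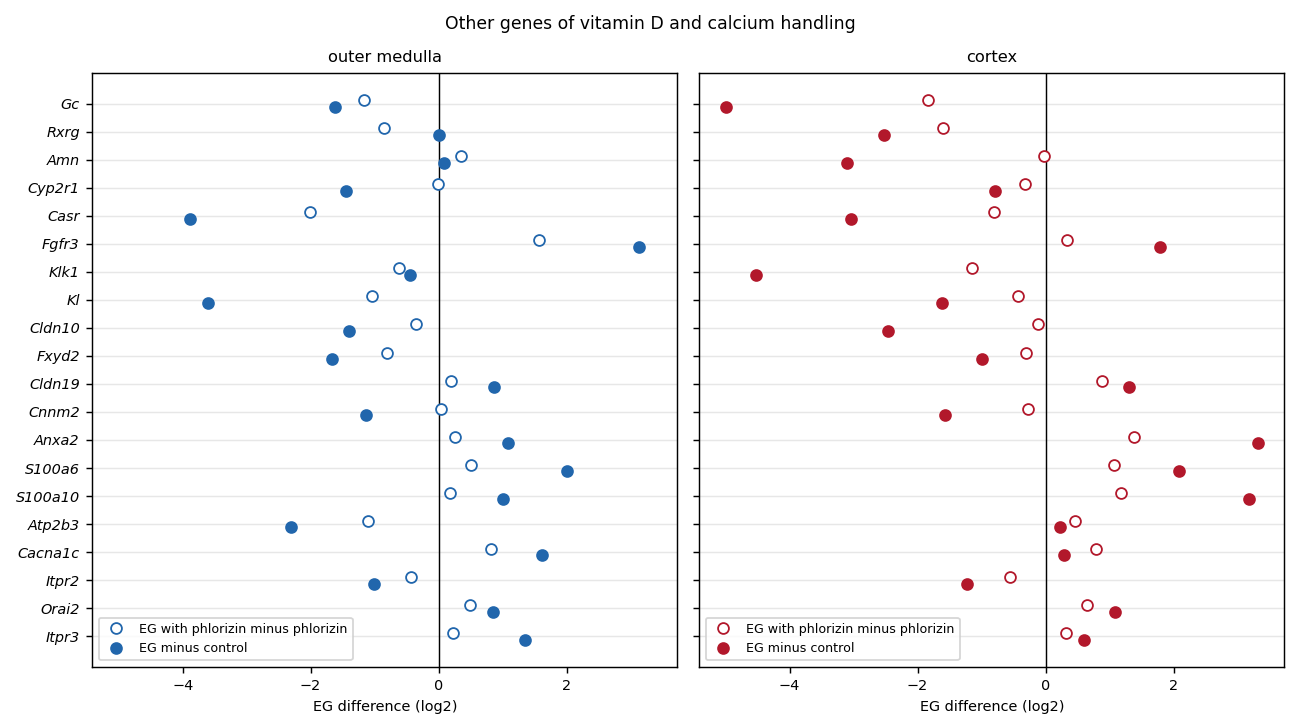
EG difference on the log2 scale (horizontal axis) of 20 other genes of vitamin D and calcium handling in the outer medulla (left) and the cortex (right), with open circles for EG with phlorizin minus phlorizin and filled circles for EG minus control. Casr and Kl lie below 0 and Anxa2, S100a6, S100a10 and Fgfr3 above 0 in both panels.

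Likeness of pattern was read as Pearson's r over the 8 arrays after each zone's mean was taken from its 4 arrays, against 9308 other named genes, with no test, since the points share arrays and labelling. Trpv6 was the second most alike to Trpv5 at r = 0.99, after Isg20 and before Tgfb3, both at r = 0.99. For Trpv6, Trpv5 came first, followed by Isg20 and Serpinb1a. Slc8a1 was the gene most like Calb1, at r = 0.98, and Calb1 stood in the third place for Slc8a1, after Prr5 and Fam135a. Calb1 was less like Trpv5, at r = 0.69, although both were higher with EG in the outer medulla. Noc2l and Adm2 came after Slc8a1 for Calb1. Cyp24a1 was most like Zbtb24, at r = 0.99, with Slc15a3 and Cldn4 next at r = 0.93. The 3 most alike genes were Mbd2, Vac14 and Zfp641 for Vdr, and Mterf4, Ccdc77 and Btd for S100g. They were Nrbf2, Nup205 and Acer2 for Atp2b1, and Dgka, Hacd1 and Angpt1 for Atp2b4. Trpv6 was at background on 5 of the 8 arrays, Cyp24a1 on 4 and Trpv5 on 2, so values at background enter these r.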

How the data were processed

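RNA of the outer medulla and cortex was measured on 8 arrays, 1 per zone and treatment. The authors deposited log2 values, made with RMA per the submitters' processing notes. The sources used here do not give its version, and that the logarithm is log2 was judged from the lowest and highest deposited values, 2.28 and 19.7. Of 24834 probe sets, 23188 were for transcripts. The probe set with the highest mean stood for a symbol, and 13163 whose highest value reached the median of all values (7.54) were tested. limma 3.58.1 in R 4.3.3 used moderated variances, 2-sided p-values and Benjamini-Hochberg adjustment over all tested probe sets, at 0.05. EG and phlorizin were fitted on 4 zone-averaged profiles (1 residual degree of freedom), the zones over 8 arrays. limma was tested on simulated data. The number of arrays limits precision.

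The members and lists were chosen with earlier results of these data known. All 10 members are named, with up to 4 genes per pathway list by largest mean EG difference. Any gene of these lists called by limma other than between zones, and the 3 most alike genes per tested member, are named too. There were 5 pathway lists and 10 marker lists. Alternatives covered normalization, filter, variance prior, fit unit and size threshold. Python 3.11.15 with pandas 2.3.3 and numpy 2.4.6 was used.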

Additional observations from a re-analysis of the deposited data

Results flagged for a closer look

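For 3 members the EG difference ran in opposite directions in the zones in both phlorizin arms, above 0 on both outer medulla pairs and below 0 on both cortex pairs, beside 5.44% of all tested probe sets. The EG difference in the outer medulla minus that in the cortex was 2.02 for Slc8a1, 1.76 for Atp2b4 and 0.29 for Atp2b1. The limma test of this difference did not pass, with limma adjusted p of 0.261 for Slc8a1, 0.341 for Atp2b4 and 0.712 for Atp2b1. The cortical difference of Slc8a1 under phlorizin was -0.06 and that of Atp2b1 was -0.01, and all 8 values of Atp2b1 lay within 0.40.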

How the results depend on the processing

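For the comparisons of treatments, no paired analysis was possible because each group has 1 array and the labels give no replicate numbers. The zone test pairs the zones by treatment, and without that block the limma adjusted p of Trpv5 was 0.147. limma called 5 probe sets for EG, which became 0 with quantile normalization, 2 with a robust variance prior, 59 with an intensity trend, 631 without a filter, 791 with arrays centred on their medians, 355 in the outer medulla arrays alone, 1103 with the 8 arrays as samples and 1692 with the treatment as a random block. The settings with 8 arrays count zones that can share animals as samples. EG by zone, with 0 calls, had 7 with quantile normalization, 4 without a filter and 48 with an intensity trend. At a difference of 2 in place of 1, counts fell by construction: EG against control to 581 for the outer medulla and 703 for the cortex, EG with phlorizin against phlorizin to 109 for the outer medulla and 44 for the cortex, EG with phlorizin against EG to 108 for the outer medulla and 308 for the cortex, and phlorizin against control to 2 for the outer medulla and 3 for the cortex. For the EG effect of Trpv5, the limma adjusted p was 0.188 with quantile normalization, 0.0619 with a robust prior and 0.113 in cortex arrays alone. In cortex arrays alone the EG effect turned sign for Vdr (0.21), Calb1 (-0.92), Slc8a1 (-0.60), Atp2b1 (-0.078) and Atp2b4 (-0.61). In outer medulla arrays alone the phlorizin effect turned sign for Calb1 (-0.21), Atp2b1 (0.10) and Atp2b4 (-0.11), and with centred arrays for Atp2b1 (0.032). In outer medulla arrays alone limma called the EG effect of Trpv6 (4.35, adjusted p = 0.031, for a gene that passed the filter only through these EG arrays), Calb1 (2.31, adjusted p = 0.0326) and Slc8a1 (1.42, adjusted p = 0.048), and in cortex arrays alone that of Cyp24a1 (3.33, adjusted p = 0.0336). The causes were not tested. Centring moved the median of all probe sets, EG with phlorizin minus EG in the cortex, to 0.09, against -0.04 as deposited. Of 306 alternatives for the members' limma results, 278 kept direction and side of the threshold, 15 gained a call, 4 lost it and 9 turned sign. Averaging probe sets gave no other value, since each member has 1. Signal over background limits Cyp24a1, Calb1 and, on the arrays without EG, Trpv5 in the outer medulla, as well as Trpv6, S100g and Cyp27b1.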

Other observations

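The marker lists not described above had the following medians of EG minus control. The 10 tubule injury markers were at 2.85 for the outer medulla and 4.56 for the cortex. Thick ascending limb markers (7 tested) were at -1.31 for the outer medulla and -1.52 for the cortex, and intercalated cell markers (8 tested) at -2.12 for the outer medulla and -2.71 for the cortex. Proximal tubule markers (11 tested) were at -0.57 for the outer medulla and -0.94 for the cortex. Principal cell markers (7 tested) were at -0.51 for the outer medulla and -0.70 for the cortex, and endothelial markers (8 tested) at -1.12 for the outer medulla and -0.94 for the cortex. Red cell markers (4 tested) were at -2.70 for the outer medulla and -3.46 for the cortex.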
